A study of Mus musculus with 4 samples.

Results

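The 10 genes described here are the transcription factor gene Nfe2l2, its inhibitor gene Keap1 and 8 genes that the factor is known to switch on, namely Nqo1, Gclc, Gclm, Slc7a11, Gsr, Txnrd1, Srxn1 and Prdx1. They are a list of symbols, with no threshold on a measured value in the rule. Each symbol matched 1 of the 55536 annotated genes, and all 10 members were among the 16262 genes with at least 10 expected counts (estimated read counts) over the libraries, the minimum for a test. RNA was measured in macrophages grown from bone marrow of C57BL/6J mice, a common inbred strain; the age and sex of the animals were not collected. All 4 libraries belong to 1 group: the cells received 100 ng/ml of lipid A, the part of bacterial endotoxin that TLR4 recognises, for 12 h, were washed for 12 h and received 100 ng/ml of lipid A again for 15 min. Total RNA of the cytosolic fraction was then sequenced after removal of ribosomal RNA. No library from cells without lipid A, from another time or from the nucleus was analysed here, so the data give levels in this state and no response to lipid A. The labels number the libraries as biological replicates 1 to 4 but name 1 donor record for all of them, so p-values measure only the spread between these samples.

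Nfe2l2 encodes NRF2, a factor that is made continuously and destroyed continuously. KEAP1 holds NRF2 for a CUL3 ubiquitin ligase; oxidants and electrophiles modify cysteines of KEAP1, and NRF2 then accumulates, pairs with a small MAF protein and binds antioxidant response elements in its target genes. In activated macrophages the metabolite itaconate is one such electrophile. The control is largely at the level of the protein, which RNA does not show. The target genes take up cystine and make glutathione (Slc7a11, Gclc, Gclm), return oxidised glutathione and thioredoxin to their reduced forms (Gsr, Txnrd1), remove peroxides (Prdx1, Srxn1) and reduce quinones (Nqo1).

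Library totals ran from 30660511 expected counts in replicate 1 to 48223718 in replicate 3. The labelled cell type was borne out by its markers: all 10 macrophage markers lay above 1 TPM (transcript abundance adjusted for gene length and scaled to a fixed total in each library), and their summed level was 6373, 4154, 5571 and 5862 TPM in replicates 1 to 4. Of the markers of other cells, 2 of 6 neutrophil markers (S100a8 and S100a9) and 1 of 5 T cell markers (Cd4) lay above 1 TPM, and the sums were 7.50 to 15.1 TPM and 8.78 to 18.1 TPM. None of the 4 B cell, 4 dendritic cell or 5 fibroblast markers did, with sums of at most 0.08, 0.56 and 0.18 TPM, and 1 fibroblast marker was at 0 in every library. In bulk RNA, fewer cells that express a gene and less RNA per cell cannot be told apart.

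The members were spread over a wide range of levels. Prdx1 was the most abundant at 381 ± 74.0 TPM (SD, n = 4 here and below), and Nqo1 the least at 0.413 ± 0.195 TPM. Levels were tested on log2(TPM + 0.1) with limma's moderated test, one-sided against fixed levels of 1 and 10 TPM, with Benjamini-Hochberg adjustment over all 16262 genes and calls at an adjusted p below 0.05. Above 1 TPM lay 8 of 10 members, against a background of 58.2% of the genes tested, and below it lay 2 of 10, Nqo1 and Slc7a11, against 35.1%. Above 10 TPM lay 5 of 10 (Prdx1, Nfe2l2, Keap1, Txnrd1 and Srxn1), against 21.7%; below it lay 3 of 10 (Gclc, Slc7a11 and Nqo1), against 69.8%. Gclm and Gsr could not be placed on either side of 10 TPM. The median of the member means was 15.8 TPM. It was 2.72 TPM for all genes tested, which include noncoding genes, and 4.85 TPM for the 12636 protein-coding genes among them. Among neighbours in the order of levels, the ranges of 4 pairs did not overlap: Prdx1 over Nfe2l2, Nfe2l2 over Keap1, Gsr over Gclc, and Gclc over Slc7a11. Ranges overlapped along the run Keap1, Txnrd1, Srxn1, Gclm and Gsr, and between Slc7a11 and Nqo1. Compared within libraries, Txnrd1 exceeded Srxn1, Srxn1 exceeded Gclm, Gclm exceeded Gsr and Slc7a11 exceeded Nqo1 in 4 of 4. Keap1 exceeded Txnrd1 in 3 of 4. In a second quantification of the same reads, described below, Srxn1 over Gclm and Slc7a11 over Nqo1 also held in only 3 of 4.

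**Figure D1:**
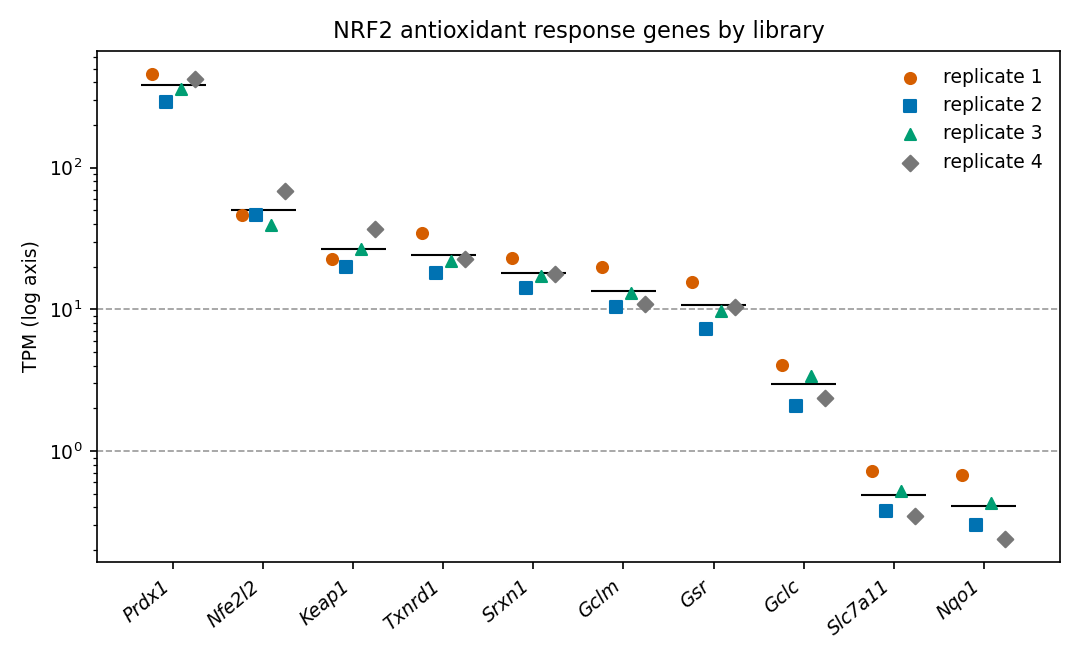
TPM of the 10 members in each of the 4 libraries, on a log axis; each marker is 1 library, the black line is the mean, and the dashed lines stand at 1 and 10 TPM. Prdx1 lies at 288 to 457 TPM and Nqo1 at 0.240 to 0.680 TPM, and the marker of replicate 1 is the highest for the 8 target genes but not for Nfe2l2 and Keap1.

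The factor and its inhibitor were both well expressed. Nfe2l2 (ENSMUSG00000015839, mm10 chromosome 2, 75675513 to 75704641, minus strand) had 46.2, 46.5, 39.1 and 68.1 TPM in replicates 1 to 4, a mean of 49.97 ± 12.6 TPM. Replicate 4 was the highest on TPM, as it was for 48.4% of all genes tested. In the second quantification replicates 1, 2 and 4 lay close together, at 19.3, 19.5 and 19.6 TPM, and replicate 3 had 11.2 TPM. The level in the first quantification exceeded 10 TPM (limma adjusted p = 7.4e-07). It placed Nfe2l2 between percentiles 90.4 and 93.3 of the protein-coding genes tested. Keap1 (ENSMUSG00000003308, chromosome 9, 21229730 to 21239361, minus strand) stood at 22.6, 19.9, 26.6 and 36.9 TPM, a mean of 26.5 ± 7.47 TPM, again with replicate 4 highest (limma adjusted p against 10 TPM = 4.4e-05). Within each library Nfe2l2 exceeded Keap1, by 2.05, 2.34, 1.47 and 1.85 times in replicates 1 to 4, and by 1.93 ± 0.368 times on average. With 4 libraries the exact two-sided sign-flip permutation test cannot go below p = 0.13, and it gave that value, raw and adjusted, for each of the 7 pairs of members compared, whose ratios kept 1 direction in 4 of 4 libraries.

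Nearly all Nfe2l2 signal came from the full-length coding transcript Nfe2l2-201, with 96.3% ± 2.02 of the gene's TPM in the second quantification and 96.7% ± 1.54 in the first; the authors deposited transcript levels from 2 quantifications of the same reads, and levels are from the first unless stated. Keap1 was split between a pair of coding transcripts. Keap1-205 held 53.6% ± 3.82 in the second and 59.3% ± 3.63 in the first, and Keap1-201 held 34.1% ± 2.48 and 33.3% ± 2.12. Exons of Keap1 share 510 bases with the antisense gene Gm16754, which stood at 0.228 ± 0.134 TPM; the sources used here do not state whether counting used strand, so reads of that stretch cannot be told apart by strand.

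Glutamate-cysteine ligase makes the first, rate-limiting step of glutathione synthesis, with Gclc as its catalytic and Gclm as its modifier subunit. Gclm (ENSMUSG00000028124, chromosome 3, 122245557 to 122270732, plus strand) was measured at 19.9, 10.5, 13.0 and 10.8 TPM in replicates 1 to 4, and Gclc (ENSMUSG00000032350, chromosome 9, 77754535 to 77794485, plus strand) at 4.06, 2.09, 3.38 and 2.38 TPM. Both were highest in replicate 1, and their ranges did not overlap. Gclc averaged 2.98 ± 0.909 TPM, above 1 TPM (limma adjusted p = 2.2e-05) and below 10 TPM (limma adjusted p = 3.9e-06); Gclm averaged 13.5 ± 4.36 TPM and was not called above 10 TPM (limma adjusted p = 0.0991). The call of Gclc above 1 TPM was lost in the second quantification (1.11 TPM), and its call below 10 TPM was lost on TPM scaled to protein-coding genes alone (9.82 TPM in the second and 9.71 TPM in the first quantification). RNA of the modifier subunit exceeded that of the catalytic subunit in TPM, by 4.57 ± 0.520 times and by 3.85 to 5 times in single libraries. In expected counts, which are not adjusted for length, Gclm had 1574, 980, 1496 and 858 in replicates 1 to 4. Gclc had 664, 473, 856 and 445. Most of the Gclm TPM lay in transcripts of 1002 and 1088 bases, against 3423 bases for Gclc-201, so the TPM ratio depends on that assignment.

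The Gclm level was spread over several transcripts. Gclm-206, a coding transcript of 1002 bases, held 44.3% ± 4.98 in the second and 46.3% ± 5.56 in the first quantification. Gclm-203, a partial coding transcript of 1088 bases, held 33.3% ± 5.33 and 33.1% ± 5.92. Its annotation begins at 122255587, inside the gene, but marks the start as not found, so this is not a mapped start. The full transcript of 5589 bases, Gclm-201, held 9.33% ± 1.38 and 13.8% ± 2.27. All Gclc signal in the first quantification, and 98.0% ± 3.95 in the second, lay in Gclc-201. Gclm exons share 296 bases with Gm17494 on the other strand (0.295 ± 0.0742 TPM) and 244 bases with the pseudogene Gm6061 on the same strand (0.0225 ± 0.0450 TPM).

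Slc7a11 encodes xCT, the light chain of the exchanger that brings cystine into the cell for glutathione synthesis. The gene (ENSMUSG00000027737, chromosome 3, 49892526 to 50443614, minus strand) had 0.72, 0.38, 0.52 and 0.35 TPM in replicates 1 to 4, a mean of 0.493 ± 0.169 TPM, from 327, 214, 346 and 175 expected counts. The mean was below 1 TPM (limma adjusted p = 0.0014), and so was the TPM value of every library. Gclc RNA exceeded Slc7a11 RNA by 6.11 ± 0.638 times within libraries. With 0.1 added to each TPM, the mean log2 ratio of Slc7a11 to Gclc was -2.37 in the first and -1.88 in the second quantification. The heavy chain of the same exchanger, Slc3a2, which also serves other amino acid carriers, was at 139.9 ± 26.6 TPM; it was named after its value was seen.

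The low Slc7a11 value carries a limit from its sequence. Its leading transcript, Slc7a11-201, is 9223 bases long, and bases 3772 to 4356 align to the abundant tubulin gene Tuba1b with 92.5% identity; in all, 15 genes shared at least 200 bases at 90% identity or more with it. The deposited posterior SD of the Slc7a11 count was at most 0.190 counts, a small share of its counts. Its TPM was less certain: the deposited interval in replicate 1 was 0.676 to 1.09 TPM, which crosses 1 TPM. In replicates 2 to 4 the upper bounds were 0.616, 0.751 and 0.594 TPM. The posterior mean TPM averaged 0.595. Slc7a11-201 held 68.3% ± 17.2 of the gene's TPM in the second and 91.9% ± 6.11 in the first quantification. Retained-intron transcripts, which do not encode xCT, held 27.3% and 8.13%.

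Gsr and Txnrd1 encode the NADPH-dependent reductases of glutathione and thioredoxin. Txnrd1 (ENSMUSG00000020250, chromosome 10, 82833951 to 82897712, plus strand) stood at 34.5, 18.1, 22.0 and 22.6 TPM in replicates 1 to 4, a mean of 24.3 ± 7.09 TPM and above 10 TPM (limma adjusted p = 9.4e-05). Gsr (ENSMUSG00000031584, chromosome 8, 33652523 to 33698163, plus strand) stood at 15.5, 7.24, 9.71 and 10.4 TPM, a mean of 10.7 ± 3.46 TPM, and could not be told from 10 TPM: its mean was 9.12 TPM without replicate 1. The thioredoxin reductase RNA exceeded the glutathione reductase RNA in each library, by 2.23, 2.50, 2.26 and 2.17 times, a narrow band around 2.29 ± 0.144. Gsr-201 held 91.5% ± 9.87 of the Gsr level in the second and 98.4% ± 1.97 in the first quantification.

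Txnrd1 has several annotated starts, and they are shown because its transcripts, the promoter letters and the counts can be read together there. The transcripts that start near 82859206 carried most of the level: Txnrd1-201 held 51.8% ± 7.60 in the second and 67.4% ± 5.98 in the first quantification, and Txnrd1-208 held 28.7% ± 2.25 and 20.4% ± 2.57. Txnrd1-206, from the start farther downstream, held 15.0% ± 3.44 and 10.1% ± 3.25. The only transcript from the most upstream start, Txnrd1-205, held 1.61% and 0.404%. The bases before each start, on the plus strand of GRCm38.p6 from RefSeq and ending before the first annotated exon, are below; capitals mark the antioxidant response element core TGACNNNGC, which reads GCNNNGTCA on the opposite strand.
Txnrd1 before start 82833951 (chr10:82833801-82833950): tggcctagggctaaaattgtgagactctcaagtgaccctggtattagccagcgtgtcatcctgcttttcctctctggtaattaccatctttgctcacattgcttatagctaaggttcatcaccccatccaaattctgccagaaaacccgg
Txnrd1 before start 82859206 (chr10:82859056-82859178): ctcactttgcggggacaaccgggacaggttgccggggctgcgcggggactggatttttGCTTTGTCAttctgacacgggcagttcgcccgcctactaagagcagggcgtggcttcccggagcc
Txnrd1 before start 82860341 (chr10:82860191-82860300): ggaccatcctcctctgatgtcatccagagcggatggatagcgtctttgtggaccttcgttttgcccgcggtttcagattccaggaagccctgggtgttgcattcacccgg
Of these 3 starts, the core was found before 1, 92 bases upstream of 82859206. Txnrd1-201 and Txnrd1-208 run from near this start. Of all promoter windows searched, described below, 12.4% held the core, and a link between the match and use of this start was not tested.

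**Figure D2:**
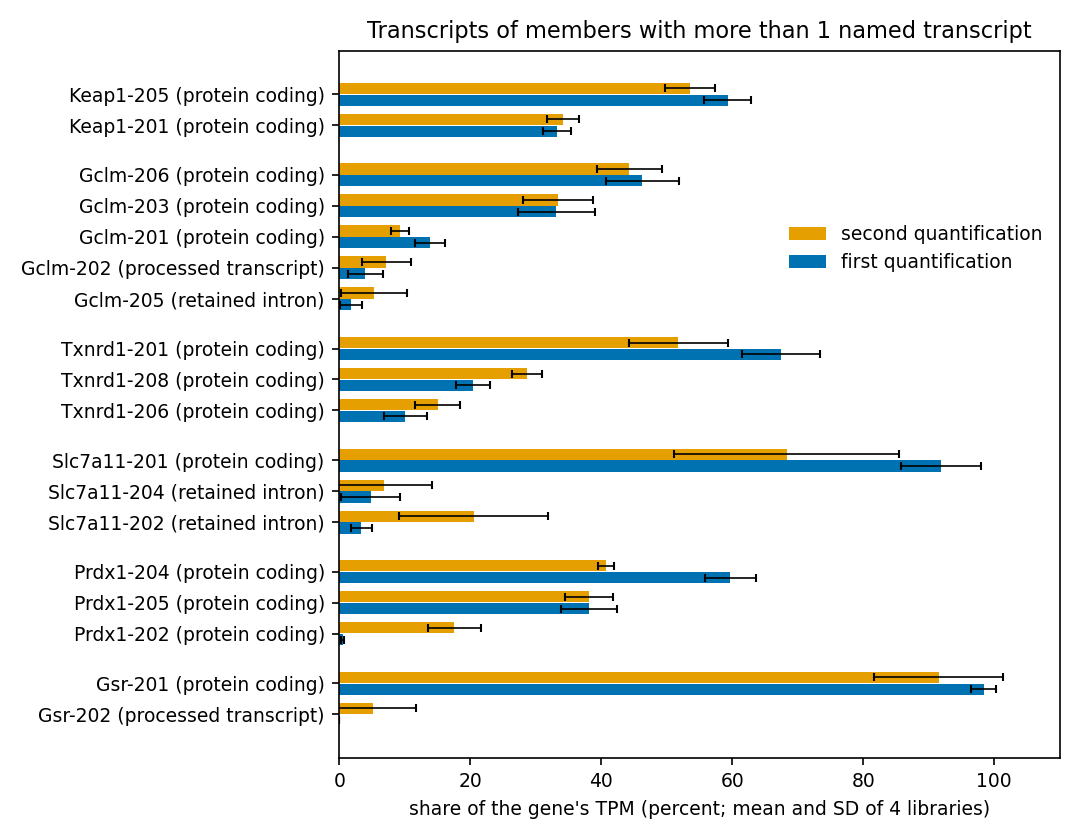
Share of each member's TPM in its named transcripts, in percent, for the 6 members with more than 1 named transcript; bars are means and whiskers the SD over 4 libraries, with the second quantification above the first. The leading transcript is the same in both for each of these members, and the gaps between bars are widest for Slc7a11-201, Slc7a11-202, Prdx1-204, Prdx1-202 and Txnrd1-201.

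Prdx1 encodes a peroxiredoxin that destroys hydrogen peroxide, and Srxn1 encodes sulfiredoxin, which repairs peroxiredoxins that have been oxidised too far. Prdx1 (ENSMUSG00000028691, chromosome 4, 116685544 to 116700822, plus strand) had 457, 288, 358 and 419 TPM in replicates 1 to 4, between percentiles 99.3 and 99.5 of the protein-coding genes tested. Srxn1 (ENSMUSG00000032802, chromosome 2, 152105516 to 152111376, plus strand) stood at 23.2, 14.2, 17.3 and 17.9 TPM, a mean of 18.1 ± 3.72 TPM. Both were highest in replicate 1 and lowest in replicate 2, and both lay above 10 TPM (limma adjusted p = 2.5e-08 for Prdx1 and 5.9e-04 for Srxn1). The ratio of Prdx1 to Srxn1 was steady across libraries, at 21.1 ± 1.63 (19.8 to 23.4), and that of Prdx1 to Txnrd1 was 16.0 ± 2.16. Both ratios were larger in the second quantification. The mean log2 ratio of Srxn1 to Prdx1 was -4.39 in the first and -4.68 in the second. That of Txnrd1 to Prdx1 was -3.98 and -4.22.

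Srxn1-201 held 92.9% ± 3.48 of its gene's TPM in the second and 95.3% ± 1.62 in the first quantification. Prdx1 was divided between the full transcript Prdx1-204, with 40.7% ± 1.23 and 59.7% ± 3.88, and Prdx1-205, with 38.1% ± 3.63 and 38.1% ± 4.27. Prdx1-205 is a partial coding transcript of 611 bases whose end is annotated as not found, so its share need not be a separate isoform. Prdx1-202 held 17.6% ± 4.06 in the second and 0.486% ± 0.190 in the first quantification, so its share depended on how reads were assigned. Prdx1 has 3 processed pseudogenes of 90.9% to 98.3% identity. Together they were given 151 counts in the first quantification, 0.112% of the 134439 counts of Prdx1, and 6.03 counts in the second. These counts result from how shared reads were assigned, so they cannot show whether Prdx1 received reads of the pseudogenes.

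The bases before Prdx1, Srxn1 and Gclm are shown because these genes, with Txnrd1, are the targets whose upstream windows held a motif. They are from RefSeq, GRCm38.p6, plus strand, end before the first annotated exon, and have in capitals the antioxidant response element core or the AP-1 letters TGANTCA, the site of FOS and JUN dimers, on either strand. In Prdx1 the second run of capitals holds both motifs, overlapping: the core starts 133 and the AP-1 letters 131 bases before the start.
Prdx1 before start 116685599 (chr4:116685349-116685543): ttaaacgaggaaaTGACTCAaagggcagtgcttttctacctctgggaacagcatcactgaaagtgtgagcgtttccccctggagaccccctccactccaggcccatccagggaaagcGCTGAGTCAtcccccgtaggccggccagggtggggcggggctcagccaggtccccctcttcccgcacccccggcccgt
Srxn1 before start 152105524 (chr2:152105374-152105515): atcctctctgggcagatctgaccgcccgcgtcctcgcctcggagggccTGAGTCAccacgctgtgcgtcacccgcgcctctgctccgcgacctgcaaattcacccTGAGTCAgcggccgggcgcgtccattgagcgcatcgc
Gclm before start 122245557 (chr3:122245407-122245556): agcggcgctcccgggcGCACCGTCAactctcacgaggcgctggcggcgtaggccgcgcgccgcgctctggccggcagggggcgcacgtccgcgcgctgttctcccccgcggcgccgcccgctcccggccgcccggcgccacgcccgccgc
The windows searched ran from 250 bases before to 50 after each RefSeq start, on both strands. The core was found in 5 of the 8 members in the table (Gclm, Nfe2l2, Prdx1, Srxn1 and Txnrd1), against 12.4% of all 32851 windows and 14% of the 27025 genes; in Nfe2l2 it lies 240 bases before the start and in Srxn1 29 bases after it. The AP-1 letters were found in 2 of 8, Prdx1 and Srxn1, against 7.81% of windows and 8.97% of genes, with 2 matches in each; those of Srxn1 lie 102 and 45 bases before its start. The Srxn1 letters 45 bases before its start run on as TGAGTCAgc, which differs from the core only in a G where the core has C. A match is a set of letters, not a measured site. Gclc and Gsr had no entry in the table.

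Nqo1, the quinone reductase that is often read as the classic NRF2 target, was the member with the least RNA. The gene (ENSMUSG00000003849, chromosome 8, 107388225 to 107403206, minus strand) had 46, 28, 45 and 19 counts and 0.680, 0.300, 0.430 and 0.240 TPM in replicates 1 to 4. Its mean of 0.413 ± 0.195 TPM was below 1 TPM (limma adjusted p = 6.8e-04) and between percentiles 14.8 and 22.0 of the protein-coding genes tested. The exact 95% binomial (Clopper-Pearson) interval for counting error was 1.103 to 2.01 CPM (counts scaled to a fixed total) in replicate 1 and 0.267 to 0.694 CPM in replicate 4, so these 2 libraries differed by more than counting error. Nfe2l2 RNA exceeded Nqo1 RNA by 68.0 to 284 times within libraries, the widest range of the 7 ratios.

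TPM shares a fixed total with noncoding RNA, and in these libraries protein-coding genes held only 25.3% to 36.6% of it. Rescaled to protein-coding genes alone, Nqo1 averaged 1.35 and Slc7a11 1.62 TPM, and neither was below 1 TPM any more; Gclc averaged 9.71, Nfe2l2 161 and Prdx1 1230 TPM on that scale. Ratios within a library do not depend on this scaling, but they can change with the quantification. In the second quantification, which gave protein-coding genes 8.83% to 14.0% of the total, members stood lower than in the first by log2 differences (second minus first) between -1.52 and -1.202 in the 8 that could be tested, with a median of -1.42, against -1.40 over all 10329 genes tested. None of the 8 passed limma's treat test of a difference beyond 1 on the log2 scale, against 4.28% of genes called lower and 2.22% called higher. At an unadjusted p below 0.05 there were 4 of the 8 members, near the background of 46.7% of genes.

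The 8 target genes moved together between libraries. On log2 CPM with TMM normalization (edgeR), each of the 8 was highest in replicate 1, against 31.2% of the genes tested, while Nfe2l2 and Keap1 were highest in replicate 4. Replicate 1 exceeded the mean of replicates 2 to 4 by 2.09 times for Nqo1, 1.98 for Gclm, 1.87 for Slc7a11, 1.79 for Gsr, 1.74 for Txnrd1, 1.58 for Gclc, 1.47 for Srxn1 and 1.42 for Prdx1. The corresponding ratio was 0.939 for Nfe2l2 and 0.862 for Keap1. Its median was 0.976 over all genes tested and 1.02 over the protein-coding genes among them. The 8 targets were also highest in replicate 1 on TPM (21.5% of all genes), on TPM rescaled to protein-coding genes (22.7%) and on the second quantification rescaled likewise (20.4%). This was noticed in the data and has no test, since replicates of 1 group give no contrast.

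**Figure D3:**
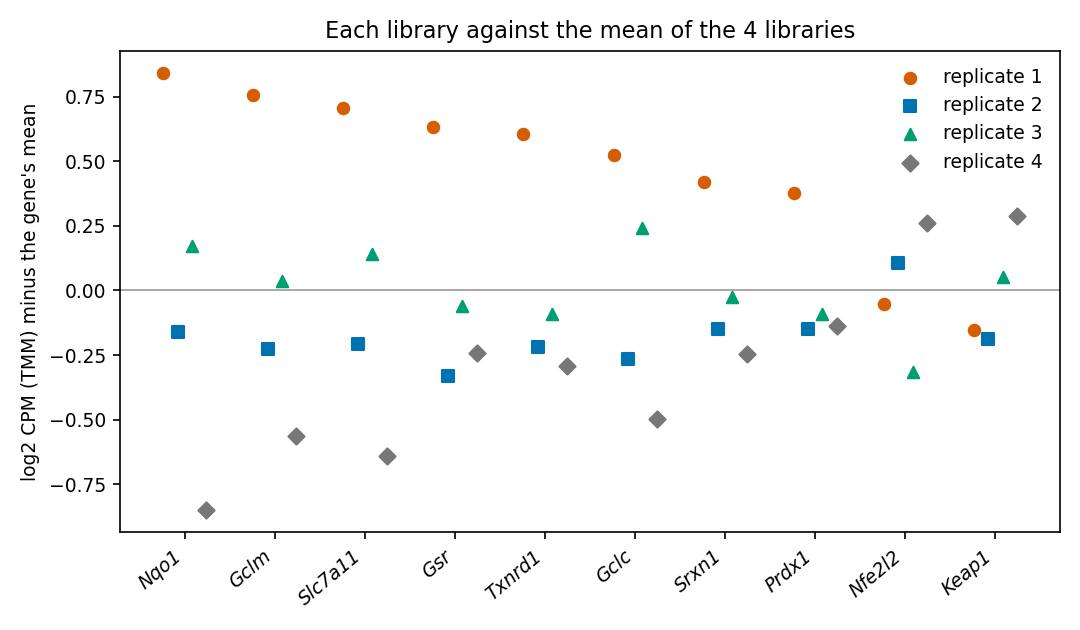
Log2 CPM (TMM) of each member in each library minus the gene's mean over the 4 libraries; each marker is 1 library and genes are ordered by the ratio of replicate 1 to the others. Replicate 1 is the top marker for the 8 target genes, from 0.38 above the mean for Prdx1 to 0.84 for Nqo1, and replicate 4 is the top marker for Nfe2l2 and Keap1.

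Among the other libraries, replicate 4 was the lowest for Nqo1, Gclm, Slc7a11, Gclc, Srxn1 and Txnrd1 on the same scale, and replicate 2 was the lowest for Gsr and Prdx1. Replicate 1 also stood apart in other measures. It had the fewest counts, its summed macrophage markers were the highest, and its summed nuclear RNAs (Malat1, Neat1, Kcnq1ot1 and Snhg11) were 65.3 TPM, against 761, 448 and 316 TPM in replicates 2 to 4. The part of these differences in the higher target levels was not tested.

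The spread between libraries differed among the members and was lower for every member without replicate 1. The biological coefficient of variation (the spread between libraries beyond counting error, from edgeR) was 0.166 for Nfe2l2 and 0.155 for Keap1, near the median of 0.170 over protein-coding genes. It was 0.176 for Srxn1, 0.182 for Prdx1, 0.225 for Txnrd1, 0.232 for Gsr, 0.247 for Gclc, 0.281 for Gclm, 0.305 for Slc7a11 and 0.488 for Nqo1. Without replicate 1 it was 0.155 for Gclm, 0.115 for Txnrd1, 0.111 for Srxn1 and 0.116 for Gsr, so leaving out 1 library lowered the spread of these 4 genes by over a factor of 1.5. It was then 0.163 for Nfe2l2, 0.144 for Keap1 and 0.136 for Prdx1. Without replicate 4 the coefficient was 0.162 for Nfe2l2, 0.139 for Keap1, 0.227 for Txnrd1, 0.175 for Srxn1, 0.242 for Gsr and 0.197 for Prdx1. The targets were highest in replicate 1 and Nfe2l2 and Keap1 in replicate 4. The order of these spreads therefore depends on which library is left out.

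The rest of the pathway was read from 5 lists of 83 genes in all. The lists were chosen with earlier results of these data known. Above 1 TPM lay 64 of the 83 (background 58.2% of genes tested) and below it 8 (35.1%), while 7 could not be placed and 4 had too few counts for a test. Above 10 TPM lay 40 (21.7%). Of the 79 genes tested, 37 were highest in replicate 1 on log2 CPM, for which the background is the 31.2% given above.

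Of 14 genes that control NRF2 or share its sites, 10 lay above 1 TPM, 3 below and 1 on neither side, with a median level of 13.8 ± 1.64 TPM. The most abundant were Sqstm1 at 249 ± 78.9 TPM, the autophagy receptor p62 that binds KEAP1, the related factor gene Nfe2l1 at 63.1 ± 14.7 TPM, and Rbx1, the RING subunit of the CUL3 ligase, at 50.1 ± 7.63 TPM. Least abundant were Nfe2l3, another relative, at 0, 0.32, 0.04 and 0.1 TPM in replicates 1 to 4, and Bach2, a repressor gene known from lymphocytes, at 0.065 ± 0.0332 TPM. Of genes named after their values were seen, Cul3 itself was at 23.0 ± 3.96 TPM, Bach1, the repressor that competes for the same sites, at 19.3 ± 4.88 TPM, and Mafg, a small MAF partner, at 12.2 ± 1.84 TPM. In this list 5 of 14 genes tested were highest in replicate 1. Sqstm1 was not, with a ratio of 0.737 to the other libraries.

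Of 21 other genes known as NRF2 targets, 16 lay above 1 TPM, 2 below, 1 on neither side, and 2 had too few counts, with a median of 8.63 ± 1.32 TPM. Hmox1, haem oxygenase, reached 211, 78.7, 136 and 126 TPM in replicates 1 to 4, averaging 138 ± 54.8 TPM. Blvrb, which reduces biliverdin, was at 79.3 ± 26.3 TPM, and the glutathione transferase gene Gstm1 at 63.6 ± 9.39 TPM. Gsta4 was at 0.03 TPM in replicate 2 and at 0 in the others, and Aldh3a1 had no count in any of the 4, so that up to 0.0978 CPM could have been missed in the shallowest. In this list 11 of 19 genes tested were highest in replicate 1, among them Hmox1 with a ratio of 1.91 to the other libraries and Blvrb with 1.71; Gstm1, at 0.963, was not. The NADPH-making enzyme gene Me1 had a ratio of 2.18 at a low level of 1.24 ± 0.674 TPM, and Pgd, another, a ratio of 1.42 at 62.3 ± 15.1 TPM; both were named after their values were seen.

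Of 26 other genes of the glutathione system, 18 lay above 1 TPM, 2 below, 4 on neither side, and 2 had too few counts, with a median of 4.82 ± 0.471 TPM. Gpx1, the main cytosolic glutathione peroxidase, was at 273 ± 23.6 TPM, and Gpx4, which reduces lipid peroxides, at 146 ± 4.21 TPM. Glrx, a glutaredoxin, reached 317, 101, 136 and 217 TPM, and replicate 1 exceeded the mean of the others by 2.19 times on CPM. Gpx8 was at 0.02 TPM in replicate 1 and at 0 in the others, and Ggt1, which cleaves glutathione outside cells, was listed at 0 TPM in each library.

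Of 17 genes of the thioredoxin and peroxiredoxin system, 16 lay above 1 TPM, none below and 1 on neither side, with a median of 20.9 ± 2.77 TPM. Prdx5 was at 314 ± 103 TPM, the thioredoxin gene Txn1 at 152 ± 41.2 TPM and Prdx2 at 87.4 ± 15.1 TPM, so Prdx1 had the highest mean of these peroxidases. Least abundant were Sesn3 at 1.37 ± 0.232 TPM and Txnrd3, a thioredoxin reductase gene known from testis, at 0.903 ± 0.210 TPM. Of 5 superoxide and peroxide enzymes, 4 lay above 1 TPM and 1 below, with a median of 34.8 ± 4.06 TPM. Sod2, the mitochondrial superoxide dismutase, was at 191 ± 63.9 TPM, Sod1, the cytosolic one, at 75.0 ± 13.9 TPM, and catalase (Cat) at 34.8 ± 4.06 TPM; Ccs, the copper chaperone of SOD1, was at 6.27 ± 0.926 TPM, and Sod3, the secreted form, at 0.0125 ± 0.005 TPM.

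**Figure D4:**
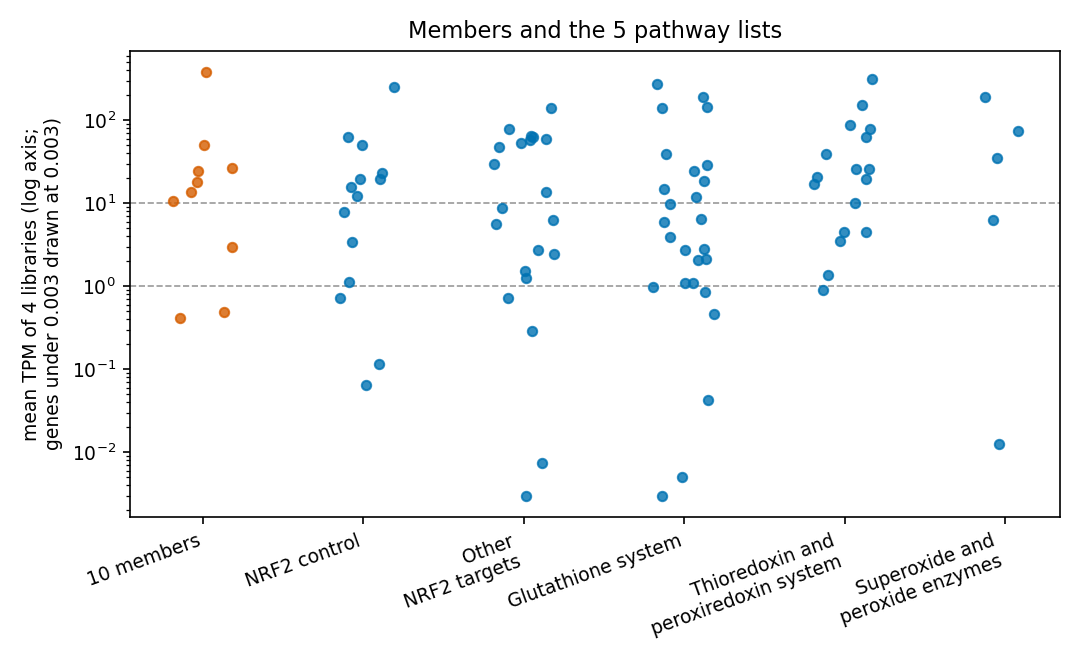
Mean TPM over 4 libraries, on a log axis, of the 10 members and of the genes of the 5 pathway lists; each point is 1 gene, genes under 0.003 TPM are drawn at 0.003, and the dashed lines stand at 1 and 10 TPM. Most points of each list lie above 1 TPM, and Prdx1 at 381 TPM is the highest point of all.

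Set beside these lists, the ratio of replicate 1 to the other libraries had a median of 1.66 over the 10 members. Over list genes above 1 TPM the median was 0.964 for control genes, 1.12 for other targets, 1.09 for the glutathione system, 1.15 for the thioredoxin and peroxiredoxin system and 1.26 for the superoxide and peroxide enzymes, against 1.03 over all 9457 genes above 1 TPM. A ratio above 1 was found for 14 of the 16 other targets and 5 of the 10 control genes, against 56.3% of genes above 1 TPM. The count was 10 of 18 in the glutathione system and 12 of 16 in the thioredoxin and peroxiredoxin system. For the superoxide and peroxide enzymes it was 3 of 4.

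**Figure D5:**
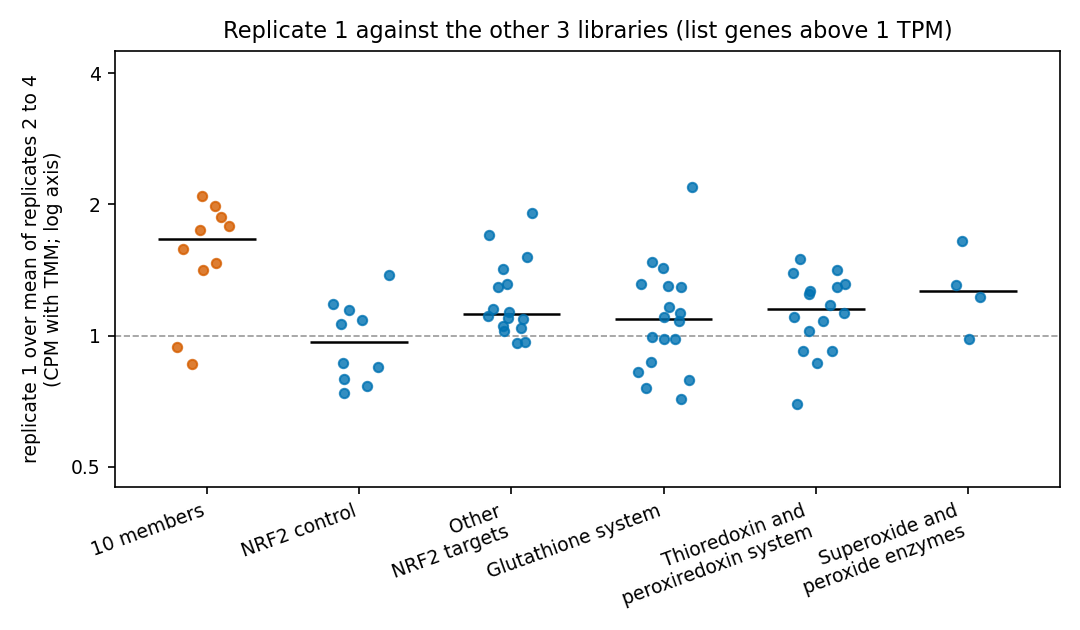
Ratio of replicate 1 to the mean of replicates 2 to 4 (CPM with TMM, log axis) for the 10 members and for list genes above 1 TPM; each point is 1 gene and the black line is the median. The 8 target members lie at 1.42 to 2.09, Nfe2l2 and Keap1 lie below 1, and among list genes Glrx at 2.19 and Hmox1 at 1.91 lie highest.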

How the data were processed

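Per the submitters' labels and the files' notes, reads were assigned to GENCODE M21 on mm10. No source used here names the aligner or quantifier. The authors deposited gene tables with expected counts and TPM, plus posterior mean counts and TPM with their SDs and interval bounds (used as scores), from a transcriptome alignment, and transcript tables from this and from a second quantification made directly from the read files, whose estimated counts and TPM were summed per gene. The members and lists were chosen with earlier results of these data known. Levels were fitted with limma 3.58.1 on log2(TPM + 0.1) over all genes with at least 10 summed counts; spread came from edgeR 4.0.16 on expected counts rounded to whole numbers, with DESeq2 1.42.0 as an alternative. Named genes were all members, the 3 highest and 2 lowest of each list, and transcripts with at least 5% of a member's TPM. Copies were sought with BLAST 2.17.0. A count of 0 allows 3 counts, 0.0622 to 0.0978 CPM; limits and intervals cover counting error only. Protein sequences were not used here.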

Additional observations from a re-analysis of the deposited data

Results flagged for a closer look

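In 52 groups of 4 values, one per library, 3 had a library far from the others, where chance gives about 1 in 20 groups. These were Gsta4, at 0.03 TPM in replicate 2, Gpx8, at 0.02 TPM in replicate 1, and Sod3, at 0.02 TPM in replicate 1. All 3 genes are near the limit of counting, and the members had no such library.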

How the results depend on the processing

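No paired analysis was possible because all 4 libraries belong to 1 group. Over 10 members and 14 alternatives, 135 levels against 1 TPM and 127 against 10 TPM kept their direction and their side of the threshold. Rescaled to protein-coding genes, 3453 genes and 0 members lay below 1 TPM, and Nqo1 (1.35 TPM) and Slc7a11 (1.62 TPM) changed side; in the second quantification rescaled likewise, 0 members lay below it, with Nqo1 at 1.504 and Slc7a11 at 1.95 TPM. Under both rescalings Gclc (9.71 and 9.82 TPM) was no longer called below 10 TPM, which left 2 members there, and Gclm and Gsr were called above it; Gclm also was with posterior mean TPM (14.2). In the second quantification as deposited, 12231 genes lay below 1 TPM, 7 members lay above it without Gclc (1.11 TPM, no longer called), 2 lay above and 6 below 10 TPM, and Keap1 (9.04), Gclm (6.11), Txnrd1 (9.12), Srxn1 (6.43) and Gsr (4.09 TPM) changed side of 10 TPM; that table gives protein-coding genes a smaller share of the total. Genes below 1 TPM, 5712 as reported, numbered 12003 with no filter and 2800 with at least 40 counts, as the filter sets how many low genes are tested. Leaving out 1 library each, Gsr ranged over 9.12 to 11.9 TPM, the lowest without replicate 1. Genes differing between quantifications, 671 as reported, numbered 1418 with a pseudocount of 1, 326 with no filter and 10010 at a threshold of 0.5; members numbered 1 (Nfe2l2) with a pseudocount of 1 and 8 at a threshold of 0.5, against 0. Depth limits Nqo1, with 19 to 46 counts. The cause was not tested beyond what each alternative's construction shows.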
